A study of Homo sapiens with 6 samples.

Results

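The 10 bone metastasis mediators TNFRSF11B, TNFSF11, PTHLH, IL11, DKK1, CXCR4, SPP1, SPARC, IBSP and RUNX2 were examined in A549, an established cell line from a human lung adenocarcinoma, after knockdown of METTL3, the catalytic subunit of the m6A writer complex. The members were chosen by gene symbol, and all 10 were found among the 57781 rows of the count table. RNA was sequenced from 3 vector libraries, labelled wild type, and 3 shMETTL3 libraries, labelled METTL3 knockdown. Both groups were A549 cells grown in DMEM with serum, without any other treatment named. The study's methods say in general that experiments were repeated independently, but the labels do not say whether the 3 libraries of a group came from separate cultures, so that p-values measure the spread between these libraries only, which may be technical. The count columns of the shMETTL3 group are named sh1 to sh3 and were matched by number to titles that call them replicates. The number of hairpins or clones behind them is not given, so that their spread may include differences between hairpins.

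Tumor cells that grow in bone act on osteoclasts, which resorb bone, and on osteoblasts, which build it. RANKL, encoded by TNFSF11, binds RANK on osteoclast precursors and drives their maturation, while osteoprotegerin, encoded by TNFRSF11B, is a soluble decoy receptor that captures RANKL. Parathyroid hormone-related protein and interleukin 11 are secreted by tumor cells and favour resorption, DKK1 restrains osteoblasts by blocking WNT signaling, and CXCR4 guides cells toward the chemokine CXCL12 of the marrow. Osteopontin, osteonectin and bone sialoprotein are proteins of bone matrix, and RUNX2 is the transcription factor that commits cells to the osteoblast lineage.

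Knockdown of METTL3 was accompanied by a near loss of TNFRSF11B transcripts and by higher levels of IL11, DKK1, SPP1, SPARC, RUNX2 and, less firmly, PTHLH. TNFRSF11B fell from 50.2 ± 3.86 to 0.354 ± 0.133 CPM (CPM, counts relative to library size after edgeR's TMM scaling, mean ± SD, n = 3 per group), and IL11 rose from 37.4 ± 1.73 to 219.8 ± 3.85 CPM. TNFSF11, CXCR4 and IBSP stayed at 9 counts or fewer in every library. These 3 genes were under edgeR's low-count filter, and the other 7 were tested. Calls rest on edgeR's quasi-likelihood test over 15125 genes, with 0.05 as the limit for the Benjamini-Hochberg adjusted p. All 7 tested members were called, 6 higher and 1 lower, in a comparison in which 66.6% of all tested genes were called, 33.7% higher and 32.9% lower. TNFRSF11B, SPARC and RUNX2 passed the filter only through the group in which they were high, so this count says nothing about the members as a set.

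**Figure D1:**
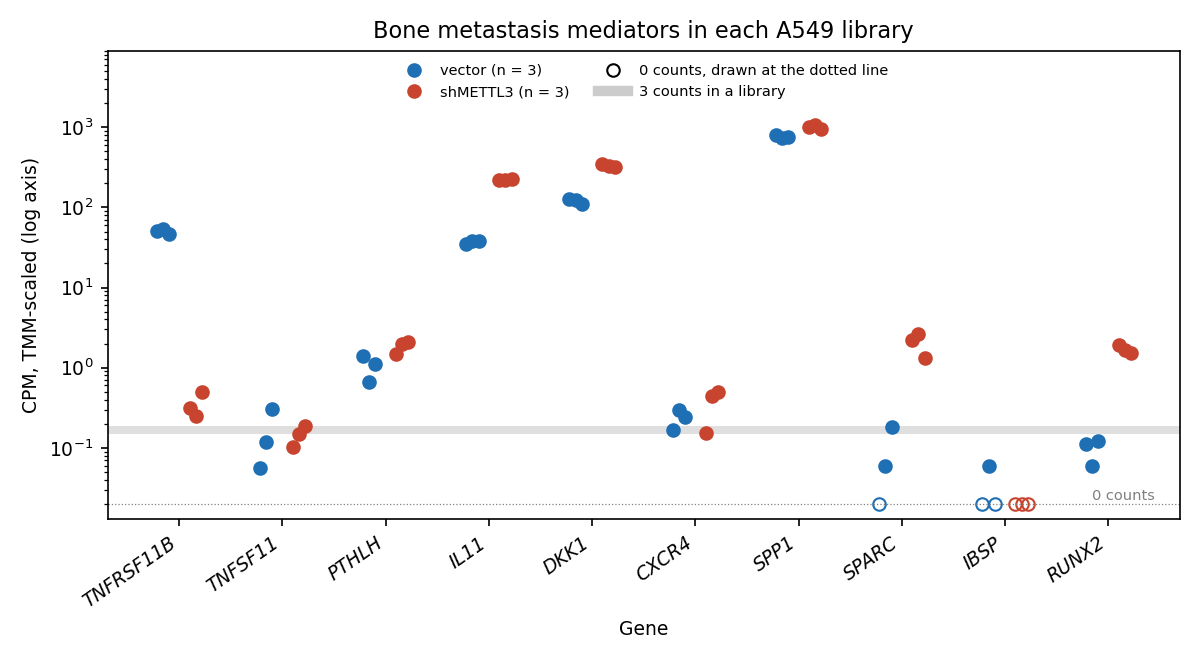
TMM-scaled CPM of the 10 members in each of the 6 libraries, on a log axis, with 1 point per library. TNFRSF11B drops from 45.9 to 53.3 CPM in vector to 0.249 to 0.503 CPM in shMETTL3, IL11, DKK1 and SPP1 stand higher in each shMETTL3 library, and TNFSF11, CXCR4 and IBSP lie near or under the level of 3 counts in a library.

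METTL3 itself fell from 887, 846 and 808 counts to 364, 399 and 307 counts, which left 38.8% of the vector level (log2 fold change -1.36, standard error 0.067, adjusted p = 4.57e-16). Exons of TOX4 overlap METTL3 on the opposite strand. Library totals lay between 14931426 and 19108928 counts, and 3 counts, taken as the floor of detection, equal 0.149 to 0.189 CPM. This floor and the counting intervals given later cover counting error only. Of the 6 epithelial markers looked at, all were present, though 5 were lower and only KRT7 was higher in shMETTL3, and their summed level was 9959 to 10622 CPM in vector and 5145 to 5593 CPM in shMETTL3. Markers of other cell types were scarce. Summed over 5 genes each, osteoblast markers stood at 0.120 to 0.278 CPM in vector and 0.126 to 0.398 CPM in shMETTL3, with BGLAP, IBSP, DMP1 and ALPL at 3 counts or fewer in each library, and osteoclast markers at 3.92 to 4.24 and 4.24 to 5.23 CPM. Fibroblast markers stood at 6.46 to 9.86 and 14.3 to 14.7 CPM over 6 genes, mostly COL1A1, with COL1A2 at 3 counts or fewer. Of the leukocyte markers, CD14 stood at 0.299 to 0.980 CPM in vector and 5.83 to 6.6 CPM in shMETTL3, LYZ had 0, 2 and 1 counts against 6, 2 and 6, and PTPRC and CD3E were at 3 counts or fewer in each library. Endothelial markers stood at most at 0.122 and at 1.39 to 1.95 CPM over the 3 of 4 listed genes found in the table, nearly all CDH5, with VWF at 0 counts. The part of these markers in the changes of the members was not tested, and in bulk RNA a smaller share of cells that express a gene cannot be told apart from less RNA per cell.

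Osteoprotegerin showed the largest change among the members. TNFRSF11B (GRCh37, chromosome 8, 119935796 to 119964124, minus strand) had 925, 892 and 750 counts in the vector libraries. The shMETTL3 libraries had 6, 5 and 8 counts. Every shMETTL3 library was therefore far below every vector library, although still above the floor, so that expression remained detectable at this depth. The change came to -7.16 on the log2 scale (standard error 0.15, adjusted p = 5.80e-24), and 0.705% of the vector level remained. Over pooled counts, the vector libraries held 146 times the level of the shMETTL3 libraries, with a 95% exact counting interval of 93.6 to 244. By size of fall, the gene ranked 13 among the 15125 tested. No exon of another gene overlaps it on the opposite strand in the GENCODE annotation used here.

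RANKL, the ligand that osteoprotegerin captures, was barely detected. TNFSF11 had 1, 2 and 5 counts in vector cells, next to 2, 3 and 3 in shMETTL3 cells. The groups overlapped, with 8 pooled counts in each, and a change was not detectable at this depth, since the interval of the ratio ran from 0.302 to 2.82. Without the low-count filter, the adjusted p was 0.943. Levels of different genes were compared per kilobase of exon. TNFRSF11B stood at 20.0 ± 1.54 CPM per kb in vector cells and at 0.141 ± 0.053 in shMETTL3 cells, and TNFSF11 at 0.0588 ± 0.048 and 0.0539 ± 0.016 CPM per kb.

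The other genes of this axis changed in both directions. Of 8 tested companion genes, 3 rose, 3 fell and 2 did not pass the test, where 66.6% of all tested genes were called. The median log2 fold change of the 8 was 0.039. This median went to 2.9e-04 without shMETTL3 replicate 1, to 0.022 without vector replicate 3 and to 0.21 under library-size scaling, and nothing is read from it against the median of 0.0022 over all tested genes. RANK, the receptor for RANKL encoded by TNFRSF11A, rose from 1.78, 2.51 and 2.82 CPM to 5.95, 8.02 and 7.11 CPM (log2 fold change 1.57, standard error 0.18, adjusted p = 1.11e-08). TNFSF10 encodes TRAIL, the death ligand that osteoprotegerin also binds, and had the largest rise of this list, from 1.13 ± 0.33 to 5.90 ± 0.88 CPM (log2 fold change 2.37, standard error 0.21, adjusted p = 1.81e-10). LGR4, a receptor for R-spondins that also binds RANKL, had the largest fall, from 401.5 ± 19.5 to 251 ± 6.88 CPM (log2 fold change -0.68, standard error 0.051, adjusted p = 4.14e-12). Neither TNFRSF11A nor TNFSF10 overlapped between groups, which was also so for 69.5% of all tested genes.

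**Figure D2:**
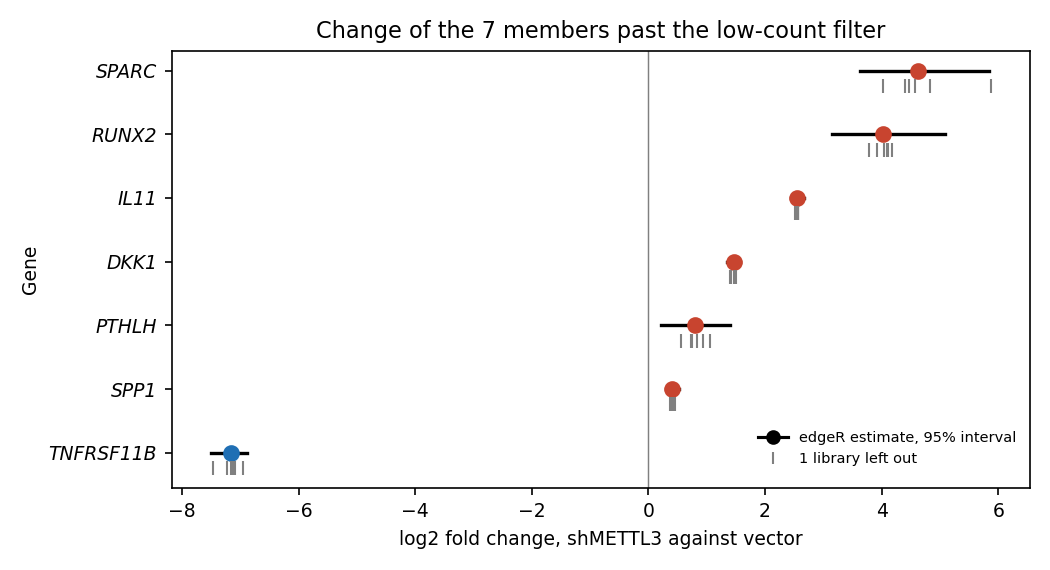
Log2 fold change of the 7 tested members in shMETTL3 against vector, with the 95% interval of edgeR's estimate as a bar and the estimate after leaving out each library as ticks. TNFRSF11B lies at -7.16, SPARC at 4.62 and RUNX2 at 4.02 with wide intervals, and PTHLH is the member whose interval comes closest to 0.

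Interleukin 11 had the smallest adjusted p of the 6 members that rose. IL11 (GRCh37, chromosome 19, 55875750 to 55881831, minus strand) stood at 35.4, 38.3 and 38.4 CPM in the vector libraries. It stood at 217, 219 and 224 CPM in the shMETTL3 libraries. The groups were far apart and the spread within them was small, with coefficients of variation of 4.63% and 1.75%. The change came to 2.56 on the log2 scale, or 5.88-fold (standard error 0.056, adjusted p = 1.15e-23).

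The receptor of IL11 consists of IL11RA, which binds the cytokine, and gp130, encoded by IL6ST, which transmits the signal. IL11RA rose from 4.6 ± 0.75 to 8.01 ± 0.40 CPM (log2 fold change 0.80, standard error 0.14, adjusted p = 1.43e-05), and IL6ST rose from 58.5 ± 4.21 to 102 ± 3.89 CPM (log2 fold change 0.81, standard error 0.059, adjusted p = 2.00e-12). Over the receptor and IL6 family list, 6 of 9 tested genes rose, 2 fell and 1 did not pass, with a median log2 fold change of 0.55. Over all tested genes, 33.7% were called higher and 32.9% lower. IL6 passed the filter only through the shMETTL3 libraries, where it was high, so that nothing is read from this count. With at least 10 counts in every library, 5 of 8 tested genes rose and 2 fell, with a median of 0.43. IL6, an inflammatory cytokine that also signals through gp130, had the largest rise, from 2, 2 and 3 counts to 83, 96 and 90 counts, a pooled ratio of 35.4 with a counting interval of 17.0 to 89.0 (adjusted p = 1.65e-13). LIF, another gp130 cytokine, had the largest fall, from 94.5 ± 4.76 to 55.0 ± 1.19 CPM (log2 fold change -0.78, standard error 0.056, adjusted p = 1.69e-12). The ligands of this family thus moved in opposite directions in the same libraries.

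Parathyroid hormone-related protein was low in both groups and its rise was less certain. PTHLH (GRCh37, chromosome 12, 28111017 to 28125666, minus strand) overlaps exons of an unnamed gene on the opposite strand, ENSG00000257042. It had 25, 11 and 18 counts in the vector libraries. The shMETTL3 libraries had 29, 40 and 33 counts. The groups did not overlap after scaling, with 0.658 to 1.39 CPM against 1.5 to 2.08 CPM, but the gap between them was narrow. Groups were separated in this way for 69.5% of all tested genes. The change came to 0.80 on the log2 scale (95% interval 0.21 to 1.40, standard error 0.29, adjusted p = 0.0167). The call was lost without vector replicate 2, at 0.55 (adjusted p = 0.111), without shMETTL3 replicate 2, at 0.74 (adjusted p = 0.0597), and without shMETTL3 replicate 3, at 0.72 (adjusted p = 0.0593).

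The receptor gene PTH1R had 15 pooled counts in shMETTL3 and 7 in vector, and a change was not detectable at this depth, with a ratio between 0.759 and 5.73. TGF-beta released from bone is known to raise PTHrP in tumor cells, and GLI2 and the SMADs act in that response. Of the 11 tested genes of this list, 7 rose, 2 fell and 2 did not pass, with a median log2 fold change of 0.33. Over all tested genes, 33.7% were called higher and 32.9% lower. TGFB2, a TGF-beta ligand, had the largest rise, from 12.8 ± 0.71 to 69.3 ± 2.86 CPM (log2 fold change 2.44, standard error 0.072, adjusted p = 5.23e-21). TGFB3, another ligand of the same receptors, had the largest fall, from 3.54 ± 0.42 to 2.13 ± 0.46 CPM (log2 fold change -0.73, standard error 0.20, adjusted p = 0.00247). Under library-size scaling all 11 passed, 9 of them higher.

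DKK1, the secreted WNT antagonist, rose from an already abundant level. DKK1 (GRCh37, chromosome 10, 54074041 to 54077802, plus strand) stood at 128, 123 and 111 CPM in vector cells, and in shMETTL3 cells at 352, 325 and 319 CPM. The lowest shMETTL3 library was well above the highest vector library. The change came to 1.46 on the log2 scale, or 2.75-fold (standard error 0.057, adjusted p = 3.11e-18). Exons of the antisense gene PRKG1-AS1 overlap DKK1, and whether the counting used strand is not given. PRKG1-AS1 had between 19 and 60 counts per library, against 1805 to 6801 counts for DKK1.

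DKK1 acts by binding LRP5 and LRP6, the co-receptors of WNT, together with Kremen proteins. LRP6 rose from 73.1 ± 0.77 to 97.5 ± 6.61 CPM (log2 fold change 0.42, standard error 0.056, adjusted p = 2.92e-07). LRP5, named after its values were seen, stood at 125 ± 9.55 and 126 ± 1.11 CPM and did not pass the test (log2 fold change 0.017, 95% interval -0.096 to 0.13, adjusted p = 0.797). KREMEN1 stood at 31.7 ± 2.46 and 28.7 ± 3.72 CPM and did not pass the test, with a log2 fold change of -0.15 (adjusted p = 0.119). This value turned to 0.028 under library-size scaling, and it passed the test without vector replicate 2, at -0.21, or shMETTL3 replicate 3, at -0.23. Of the 6 tested genes of this list, 3 rose and 3 did not pass, with a median log2 fold change of 0.54. With at least 10 counts in every library, 3 of 5 tested genes rose, with a median of 0.44. Over all tested genes, 33.7% were called higher. SFRP1, a secreted antagonist that binds WNT proteins, had the largest rise, from 5.95, 6.22 and 6.31 CPM to 84.2, 83.2 and 83.2 CPM (log2 fold change 3.76, standard error 0.076, adjusted p = 1.93e-24). The other listed genes, DKK2, DKK4, SOST and WIF1, were under the filter, and DKK4 had no count in any library.

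CXCR4, the homing receptor, was near the floor in both groups. Its counts were 3, 5 and 4 in vector cells, against 3, 9 and 8 in shMETTL3 cells, and the groups overlapped. The pooled ratio was 1.54 with a counting interval of 0.716 to 3.45, so that a change was not detectable at this depth. Its ligand CXCL12 had 3 and 7 pooled counts in vector and shMETTL3, with an interval of the ratio from 0.491 to 12.9. ACKR3, the other receptor for CXCL12, had 0, 0 and 1 counts in vector and 6, 11 and 13 in shMETTL3, a ratio of 27.7 with a wide interval of 4.6 to 1129, and was under the filter. MIF, which also binds CXCR4, had 13 and 5 pooled counts and was under the filter too. Exons of MIF-AS1 and of an unnamed gene, ENSG00000290199, overlap MIF on the opposite strand. The part of this overlap in the low counts of MIF was not tested. The 4 chemokines of this list that were tested rose, with a median log2 fold change of 1.95. Over all tested genes, 33.7% were called higher. The lists were chosen with earlier results of these data known, so that nothing is read from this count. CXCL8, the neutrophil chemokine interleukin 8, rose most, from 15.1 ± 0.92 to 187 ± 4.91 CPM (log2 fold change 3.63, standard error 0.064, adjusted p = 1.36e-25).

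**Figure D3:**
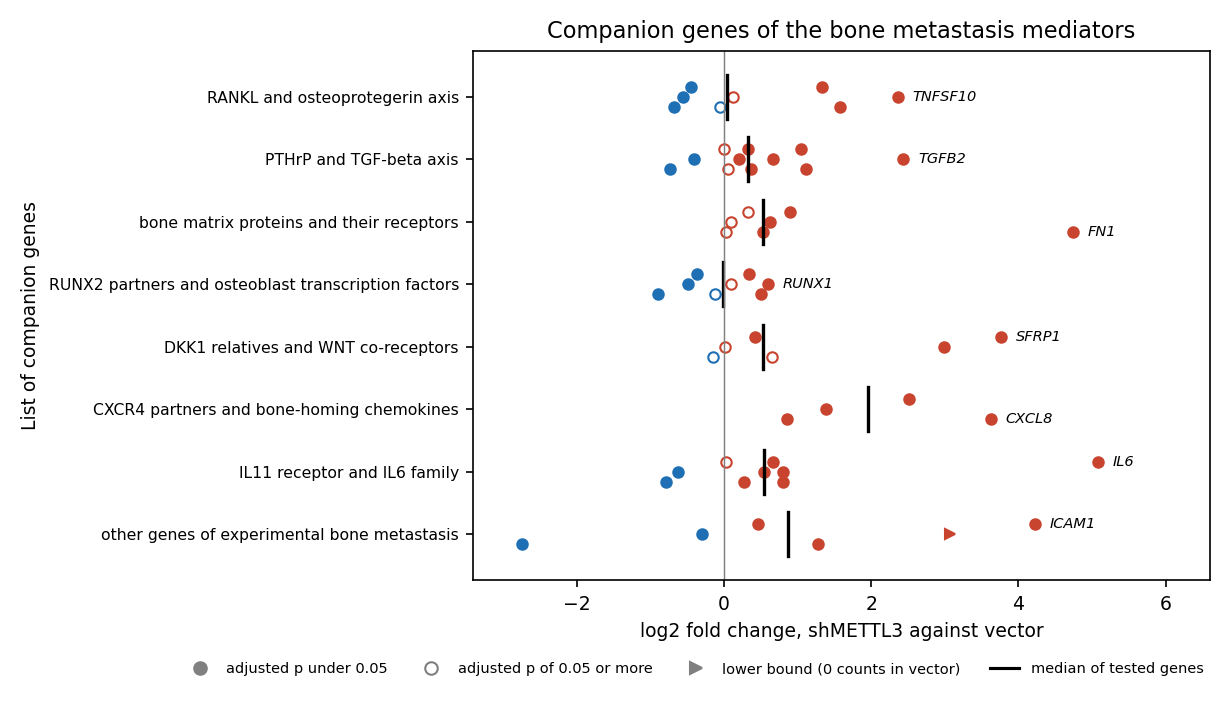
Log2 fold change in shMETTL3 against vector for the tested genes of the 8 companion lists, with 1 point per gene, filled where the adjusted p was under 0.05, and the median of each list as a bar. The triangle is VCAM1, drawn at its lower bound because it had no count in vector. The gene drawn furthest to the right, with VCAM1 taken at its lower bound, is named in each list, from RUNX1 at 0.60 to IL6 at 5.08.

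Osteopontin was the most abundant transcript of the members in CPM and changed the least of those called. SPP1 (GRCh37, chromosome 4, 88896819 to 88904684, plus strand) stood at 793, 744 and 745 CPM in the vector libraries. It stood at 1013, 1065 and 960 CPM in the shMETTL3 libraries. The groups did not overlap, and the difference came to 0.41 on the log2 scale, or 1.33-fold (standard error 0.051, adjusted p = 7.20e-08). Because SPP1 was already high, it made up 77.5% to 79.1% of the summed CPM of the 10 members in the vector libraries and 63.6% to 65.9% in the shMETTL3 libraries, while the sum rose from between 942 and 1009 CPM to between 1509 and 1615 CPM. IL11 made up 3.51% to 4.08% of the sum in vector and 13.5% to 14.8% in shMETTL3. Exons of an unnamed gene, ENSG00000286618, overlap SPP1 on the opposite strand.

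Bone sialoprotein, a relative of osteopontin, was not detected. IBSP (GRCh37, chromosome 4, 88720706 to 88733587, plus strand) had 1 count in vector replicate 2 and none in the other libraries, which is under the floor and gives no fold. IBSP and SPP1 belong to a cluster of genes for acidic matrix proteins of bone and teeth on chromosome 4, along with DSPP, DMP1 and MEPE. DSPP and MEPE had no count in any library, and DMP1 had 1 count in 1 vector library. SPP1 was thus the only one of these 5 genes above the floor. Coding genes around the cluster, looked at after their values were seen, differed in direction. PKD2, which starts 32.0 kb downstream of the SPP1 start, showed a log2 fold change of -0.043 (adjusted p = 0.548), so that it did not pass the test. ABCG2 fell, with a log2 fold change of -0.49 (adjusted p = 1.48e-07), as did PYURF, at -0.28 (adjusted p = 0.00407). NUDT9, at 0.29 (adjusted p = 4.47e-04), HERC5, at 1.39 (adjusted p = 2.62e-06), and HERC3, at 0.73 (adjusted p = 9.87e-05), rose, while PPM1K and HERC6 did not pass.

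**Figure D4:**
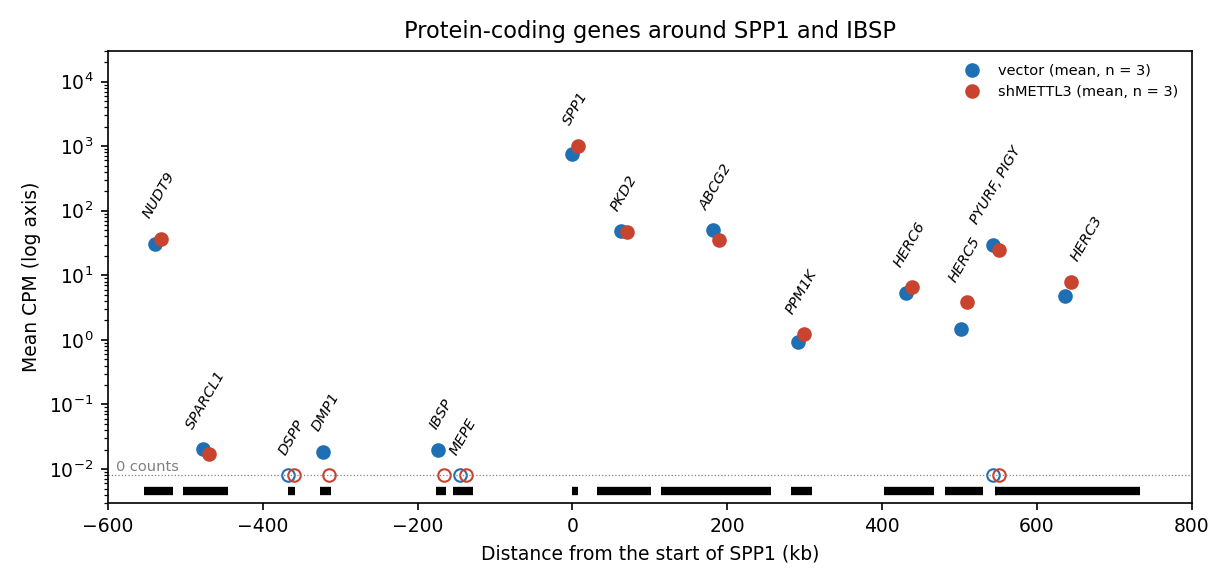
Mean TMM-scaled CPM (log axis, n = 3 per group) of the protein-coding genes whose start lies within 600 kb of the SPP1 start, by their distance from it. Black bars are the gene bodies and open points mark 0 counts. SPP1 stands at 761 and 1012 CPM, while DSPP, DMP1, IBSP and MEPE lie at or close to 0.

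The main receptors of osteopontin, CD44 and integrins, were abundant in both groups except for ITGB3. CD44 stood at 873 ± 37.7 and 935 ± 11.4 CPM in vector and shMETTL3 (log2 fold change 0.10, 95% interval -0.0012 to 0.20, adjusted p = 0.0757). Its call depended on the processing, since it passed the test under upper-quartile scaling, library-size scaling and limma-voom, with at least 10 counts in every library, and without vector replicate 3, at log2 fold changes of 0.10 to 0.28. ITGAV, an integrin subunit, stood at 139 ± 7.03 and 141 ± 4.89 CPM (log2 fold change 0.024, 95% interval -0.085 to 0.13, adjusted p = 0.710), but it was called under library-size scaling, at 0.20 (adjusted p = 0.00353). Other integrin subunits, named after their values were seen, rose, ITGB1 from 1565 ± 88.9 to 2254 ± 68.2 CPM (log2 fold change 0.53, adjusted p = 8.45e-10) and ITGB5 from 226 ± 1.18 to 351 ± 10.8 CPM (log2 fold change 0.63, adjusted p = 7.06e-12). ITGB3, which pairs with ITGAV in the integrin of osteoclasts, was under the filter with 2 and 32 pooled counts, a ratio of 14.8 with a counting interval of 3.77 to 127. On the list of matrix proteins and receptors, 4 of 7 tested genes rose and 3 did not pass. Over all tested genes, 33.7% were called higher. The median log2 fold change of the list was 0.53. Under library-size scaling 6 of its 7 tested genes rose. FN1, encoding fibronectin, rose most, from 59.9, 61.3 and 62.0 CPM to 1609, 1683 and 1589 CPM (log2 fold change 4.74, standard error 0.058, adjusted p = 4.31e-29).

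Osteonectin and RUNX2 rose from the floor to a low level. SPARC (GRCh37, chromosome 5, 151040657 to 151066536, minus strand) had 0, 1 and 3 counts in vector cells, compared with 43, 53 and 21 in shMETTL3 cells. The library of shMETTL3 replicate 3 was the lowest of its group, at 1.32 CPM against 2.22 and 2.64 CPM, and still above every vector library. The pooled ratio was 27.0 with a counting interval of 10.3 to 101. The fitted log2 fold change reached 4.62 (standard error 0.54, adjusted p = 1.45e-08), and it moved to 5.87 without vector replicate 3 and to 4.03 without vector replicate 1. Exons of CLMAT3 overlap SPARC on the opposite strand, and CLMAT3 had no count in any library.

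RUNX2 (GRCh37, chromosome 6, 45295894 to 45632086, plus strand) had 2, 1 and 2 counts in vector cells, compared with 37, 33 and 24 in shMETTL3 cells. The groups were clearly apart, and at 1.69 ± 0.21 CPM in shMETTL3, the transcript was still rare. The pooled ratio was 17.3 with a counting interval of 7.17 to 54.6, and the fitted log2 fold change reached 4.02 (standard error 0.47, adjusted p = 1.56e-08). No exon of another gene overlaps RUNX2 on the opposite strand in the GENCODE annotation used here. A gene named RUNX2-AS1 was among the counted genes and had no count in any library. RUNX2 binds DNA together with CBFB, which fell from 49.5 ± 4.75 to 38.4 ± 1.35 CPM (log2 fold change -0.37, standard error 0.069, adjusted p = 3.49e-05). Of 8 tested partners and osteoblast transcription factors, 3 rose, 3 fell and 2 did not pass, where 66.6% of all tested genes were called. The median log2 fold change of -0.010 turned to 0.013 with upper-quartile scaling and to 0.16 under library-size scaling. It also turned positive with at least 10 counts in every library, at 0.0078, without vector replicate 3, at 0.018, and without shMETTL3 replicate 3, at 0.0036. RUNX1, a paralog better known from blood cells, had the largest rise, from 12.2 ± 2.1 to 18.4 ± 0.51 CPM (log2 fold change 0.60, standard error 0.10, adjusted p = 1.01e-05). SOX9, which directs cartilage formation, had the largest fall, from 20.2 ± 1.4 to 10.9 ± 0.28 CPM (log2 fold change -0.89, standard error 0.090, adjusted p = 1.67e-09). SP7, the osteoblast factor that acts after RUNX2, was under the filter with 3 and 9 pooled counts, a ratio between 0.691 and 15.9.

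The promoters of the members were searched for 2 short motifs, TGTGGT, which RUNX proteins recognise, and TGANTCA, which AP-1 recognises, on both strands. RefSeq promoters of GRCh38.p14 were used, from 250 bases before to 50 bases after each annotated start, and 9 members had at least 1 of them. The RUNX motif occurred in 13.1% and the AP-1 motif in 7.71% of 35116 promoters of this length. Among the members, the RUNX motif was found for SPP1, once, and in 1 of the 2 RUNX2 promoters, 4 times, and the AP-1 motif for IL11 and in that same RUNX2 promoter, once each. The stretches with the matches in the promoters of IL11, SPP1 and RUNX2 are shown because these genes rose, with the motif in capitals, 5′ to 3′ on the strand of the gene. On that strand the RUNX motif reads as its reverse complement. A match describes the letters only.
IL11, AP-1, chr19:55370542-55370569, minus strand: gcagggagggTGAGTCAggatgtgtcag
SPP1, RUNX, chr4:87975561-87975588, plus strand: tttttgttttaACCACAaaaccagaggg
RUNX2, AP-1, chr6:45328080-45328107, plus strand: atcctcaTGAGTCAcaaaaattaaaaag
RUNX2, RUNX, chr6:45328128-45328155, plus strand: ggaaaggccttACCACAagccttttgtg
RUNX2, RUNX, chr6:45328232-45328259, plus strand: tgaggtcacaaACCACAtgattctgcct
RUNX2, RUNX, chr6:45328339-45328366, plus strand: acaaacaACCACAgaACCACAagtgcgg

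GGACT, the most frequent form of the sequence that METTL3 methylates, was counted in the canonical transcripts of the members, as a description of sequence and not of m6A, which these libraries do not measure. Across 19553 canonical protein-coding transcripts the median density was 0.922 per kb, with quartiles of 0.525 and 1.40. SPARC had 7 copies, or 2.03 per kb, and IL11 had 4, or 1.68 per kb, both above the upper quartile. RUNX2 had 5, or 0.903 per kb, while SPP1 and DKK1 had 2 each, or 1.28 and 1.11 per kb. TNFRSF11B had 1 copy, or 0.479 per kb, and the transcripts of TNFSF11 and PTHLH had none. Members that rose therefore ranged from no copy to 7 copies.

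Compared per kilobase, the members fell into an abundant and a scarce set in each group. In the vector libraries the order was SPP1, at 105 ± 3.87 CPM per kb of union exon length, DKK1, at 54.3 ± 4.03, TNFRSF11B, at 20.0 ± 1.54, and IL11, at 14.0 ± 0.65, with no overlap between neighbours, and then PTHLH, at 0.308 ± 0.11. CXCR4, TNFSF11, SPARC, IBSP and RUNX2 followed, and each neighbour in that order overlapped the next. In the shMETTL3 libraries DKK1, at 149 ± 7.79, and SPP1, at 140 ± 7.21, overlapped at the top, followed by IL11, at 82.1 ± 1.44. PTHLH, at 0.545 ± 0.091, and SPARC, at 0.444 ± 0.15, overlapped, and RUNX2, at 0.206 ± 0.025, TNFRSF11B, at 0.141 ± 0.053, and CXCR4, at 0.127 ± 0.064, overlapped in turn. TNFRSF11B thus moved from the third place to the seventh by union exon length. The annotated exons of SPP1 add up to 7.25 kb, but its canonical transcript has 1.56 kb. Per kilobase of canonical transcript, a length chosen after the data were seen, SPP1 stood at 649 ± 33.5 and DKK1 at 184 ± 9.58 in shMETTL3, without overlap.

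**Figure D5:**
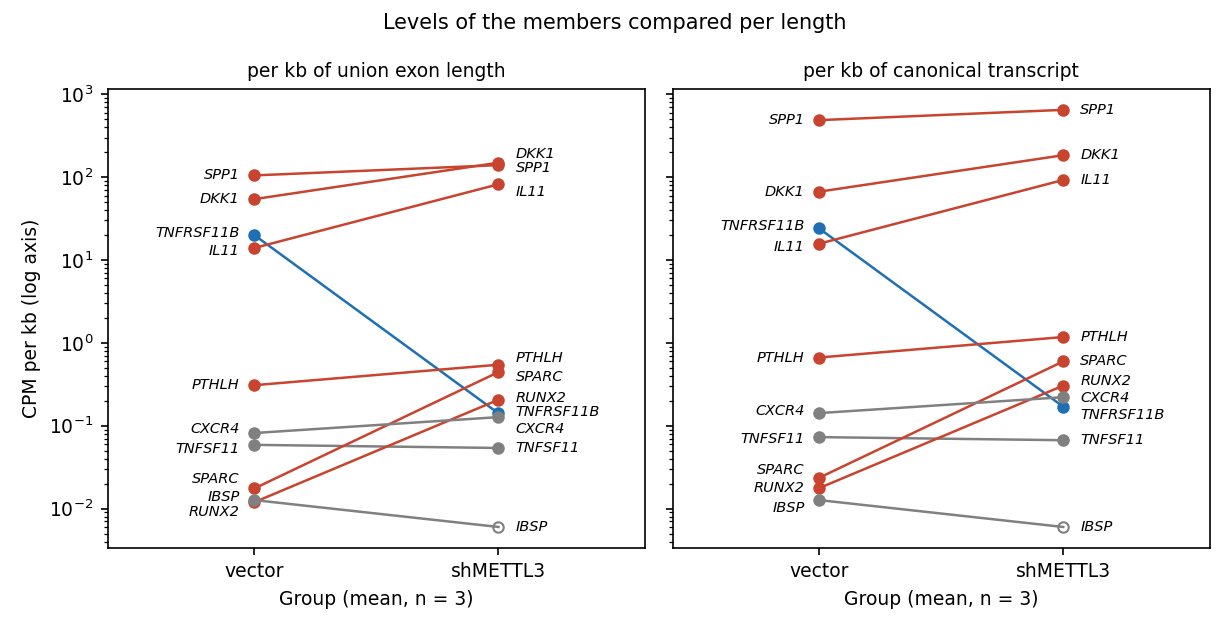
Mean level of the 10 members in CPM per kb (log axis, n = 3 per group) in vector and shMETTL3, per union exon length on the left and per canonical transcript length on the right. Red and blue lines join members called higher and lower, grey lines those under the filter, and the open point marks IBSP at 0. TNFRSF11B crosses from the abundant to the scarce members, and SPP1 and DKK1 meet in shMETTL3 on the left only.

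A last list held other genes named in experimental bone metastasis. Of its 6 tested genes, 4 rose and 2 fell, with a median log2 fold change of 0.87. With at least 10 counts in every library, ICAM1 and VCAM1 could not be fitted, and the other 4 genes, 2 higher and 2 lower, had a median of 0.10. ICAM1, an adhesion molecule bound by leukocytes, had the largest rise by the rule used, from 2, 1 and 3 counts to 41, 50 and 38 counts, a pooled ratio of 19.8 with a counting interval of 8.87 to 55.0 (adjusted p = 7.72e-10). ADAMTS1, a secreted metalloprotease, had the largest fall, from 14.0, 14.2 and 13.4 CPM to 1.97, 2.04 and 2.2 CPM (log2 fold change -2.75, standard error 0.14, adjusted p = 6.29e-16). Over all 8 lists, 46 of 59 tested genes were called, or 78.0%, with 34 higher and 12 lower and a median log2 fold change of 0.42. IL6, ICAM1 and VCAM1 passed the filter only through the shMETTL3 libraries, where they were high, so that nothing is read from this count against the 33.7% higher and 32.9% lower among all tested genes.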

How the data were processed

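RNA-seq libraries of A549 cells, 3 vector and 3 shMETTL3, were compared. The authors mapped reads to hg19 with HISAT2 and counted them per gene with htseq, and the deposited counts are whole numbers without normalization. The submitters' processing notes name cutadapt 3.0, HISAT2 2.2.1, SAMtools 1.13 and HTSeq 0.13.5, and the paper's methods name other versions of HISAT2 and htseq. The annotation and strand setting are not given in the sources used here. Groups and replicate numbers came from the sample titles, to which the count columns were matched by group and number.

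Counts were analysed with edgeR 4.0.16 in R 4.3.3. Genes were filtered by filterByExpr, libraries scaled by TMM and group effects tested by glmQLFTest after glmQLFit, with Benjamini-Hochberg adjustment over 15125 genes. Fold changes carry edgeR's prior count of 0.125, and standard errors were derived from each unshrunk coefficient and its F statistic. Fits were tested on simulated data. Intervals of pooled count ratios are exact binomial at 95%, and folds against groups at 0 counts use a floor of 3 counts per library. Gene positions and lengths came from GENCODE on GRCh37, which matches hg19. Libraries within a group differed by more than sampling noise (chi-square per degree of freedom 2.64 to 6.90, against 71.7 to 89.1 across groups), so that none was a duplicate.

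The members, the 8 companion lists with 82 genes and the tests were chosen with earlier results of these data known. Named are the members, METTL3, 13 direct partners and, per list, the largest called rise and fall with a mean of at least 1 CPM. Others are said to be named after their values were seen, or are marker, cluster or overlapping genes or listed genes under the filter. Alternatives were RLE, upper-quartile and library-size scaling, DESeq2 1.42.0, limma-voom (limma 3.58.1), no filter, a minimum of 10 counts in each library, a replicate block, each library left out, an adjusted p under 0.01, and an absolute log2 fold change of at least 1. The summed level of the leukocyte marker list is not reported here.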

Additional observations from a re-analysis of the deposited data

How the results depend on the processing

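All 7 tested members kept their direction under every alternative in which they were fitted, and TNFRSF11B, SPP1, IL11, DKK1, SPARC and RUNX2 also kept an adjusted p under 0.05. PTHLH, at 0.80, was not called at an adjusted p under 0.01, and neither PTHLH nor SPP1, at 0.41, was called with a minimum absolute log2 fold change of 1. Leaving out each library gave PTHLH values from 0.55 to 1.06. With at least 10 counts in every library, TNFRSF11B, SPARC and RUNX2 could not be fitted and 4 members were called. With the minimum of 1, 2668 genes were called in all, and 3 genes of the RANKL list, 3 of the PTHrP list, 1 of the matrix list, 0 of the RUNX2 list and 1 of the IL6 family list, because that minimum removes small changes. On the RUNX2 list edgeR called 6 genes without that minimum, and 7 had an unadjusted p under 0.05, none of them with an absolute log2 fold change of 1 by edgeR, DESeq2 or limma-voom. ITGAV turned to -0.020 without vector replicate 3 and to -0.0039 without shMETTL3 replicate 1, within a range of -0.020 to 0.053 over the 6 left-out libraries, and KREMEN1 to 0.028 under library-size scaling. The cause was not tested. Under library-size scaling the all-gene median shifted by 0.17 and 65.8% of calls were higher, against 50.6%. Other counts of calls over all genes were 9234 with DESeq2 and 10111 with the replicate block, against 10067.

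The replicate numbers did not pair the libraries. Deviations from the group means of same-numbered libraries correlated at 0.069, -0.024 and 0.039 across genes, and 3 of the 6 libraries correlated best with their own number. With the replicate block all 7 tested members were called, as without it. Depth limits TNFSF11, CXCR4 and IBSP, whose differences of mean CPM moved by less than the larger of the 2 group SDs under the other scalings and with each library left out. The difference of TNFSF11 turned from -0.013 to 0.060 CPM without vector replicate 3, to 0.0086 CPM without shMETTL3 replicate 1 and to 0.0068 CPM under library-size scaling. That of CXCR4 went from 0.132 to 0.239 CPM without shMETTL3 replicate 1 and to 0.065 CPM without shMETTL3 replicate 3.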

Other observations

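On the companion lists, VCAM1 and CSF2 had no count in any vector library and at least 3 counts in every shMETTL3 library, and both were picked after their values were seen. VCAM1, an adhesion molecule for which a part in bone colonisation is known, had 38, 32 and 14 counts in the shMETTL3 libraries and was at least 8.38-fold higher, taking 3 counts per library as the floor. CSF2, the growth factor GM-CSF, had 8, 10 and 3 counts and was at least 2.08-fold higher, but it was under the low-count filter. CSF1, which osteoclast precursors need to survive, also picked after its values were seen, rose from 20.9 ± 2.53 to 52.4 ± 2.25 CPM (edgeR log2 fold change 1.33, standard error 0.076, adjusted p = 1.19e-14), and no vector library reached the lowest shMETTL3 library.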
